A study of Mus musculus with 14 samples.

Results

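The glucocorticoid receptor gene Nr3c1 and 9 genes known as targets of the receptor, namely Fkbp5, Tsc22d3, Zbtb16, Sgk1, Klf9, Errfi1, Mt1, Mt2 and Cdkn1b, were followed in mammary epithelial cells (MECs) of mice that overexpress the deubiquitinase Usp22. The members were chosen by gene symbol, and all 10 were found among the 16124 genes of the table. RNA of MECs from 7 wild-type (WT) and 7 Usp22 OE/OE nulliparous females, aged 3.5 months, was sequenced with 1 library per mouse. The mice formed 7 pairs of littermates, numbered 1, 3, 4, 5, 6, 7 and 8, so that each litter gave 1 WT and 1 OE/OE mouse. OE/OE mice carried on both alleles of ROSA26 a FLAG- and MYC-tagged Usp22 cDNA driven by the CAGGS promoter. The stop cassette in front of it had been removed by Zp3-Cre, which acts in the oocyte, so every tissue of these mice overexpressed Usp22, not the epithelium alone, and an effect from outside the epithelium cannot be told apart from one within it. The MECs were organoids digested from the gland with collagenase and hyaluronidase, spun away from stroma and dispersed with trypsin, and the cells were not sorted. In such bulk RNA, fewer cells of a type and less RNA per cell cannot be told apart.

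Glucocorticoids, released by the adrenal gland in stress and with the time of day, enter cells and bind the glucocorticoid receptor, which waits in the cytoplasm in a complex with heat shock proteins. The bound receptor moves to the nucleus and binds as a dimer to a palindromic glucocorticoid response element, where it raises the transcription of genes such as Fkbp5, Tsc22d3 and Sgk1, and it represses inflammatory genes largely through other transcription factors. In the mammary gland, glucocorticoids act with prolactin and STAT5 on alveolar differentiation and milk protein genes. Several targets answer to other signals too, above all the metallothioneins Mt1 and Mt2, which zinc and other metals induce through the factor MTF1.

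Usp22 was between 3500 and 5380 normalized counts in WT and between 74948 and 144288 in OE/OE, so all libraries matched their genotype. Normalized counts are fragments per gene divided by the size factor of the library, and the fragments behind them came to between 20125106 and 41835978 per library. Pan-epithelial markers such as Krt8 had a median per-length level of 687, against 116 for fibroblast, 130 for endothelial, 7.80 for adipocyte, 27.0 for macrophage and 0.794 for lymphocyte markers. Per-length levels are normalized counts per kilobase of exon, scaled to a total of 1000000 in each library. No marker in the table was at 0 in any library, so transcripts of these other cell types were found in every MEC preparation. The OE/OE library of pair 4 stood apart, with the lowest summed fibroblast (64896) and endothelial (25197) markers and the highest summed proliferation markers (14244) of the 14 libraries.

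Response elements in the DNA just before the transcription start were examined first. RefSeq promoter windows on GRCm38.p6 were listed for 8 of the 10 members, with 16 windows in all, and Nr3c1 and Zbtb16 were not among them. The full palindrome, AGAACA followed by 3 free bases and its reverse complement TGTTCT, was found in 1 of these windows, that of a start site within Sgk1, and in 3 (0.00913%) of the 32851 windows of all genes. The 250 bases before this start site are shown because they hold the textbook glucocorticoid response element, in capitals, which ends 174 bases before the start.
Sgk1 chr10:21993640-21993889, plus strand: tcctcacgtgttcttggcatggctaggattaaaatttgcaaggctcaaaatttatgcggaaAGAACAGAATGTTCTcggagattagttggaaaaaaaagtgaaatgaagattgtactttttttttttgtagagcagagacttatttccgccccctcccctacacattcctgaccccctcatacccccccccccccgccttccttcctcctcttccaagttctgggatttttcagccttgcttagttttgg
Sgk1 had 6 listed start sites, and fragments were counted on the whole gene, so the level of each start was not measured. The corresponding windows of the adjacent metallothionein genes are shown for the letters of the metal response element, TGCGCNC or TGCACNC on either strand, in capitals.
Mt1 chr8:94178839-94179088, plus strand: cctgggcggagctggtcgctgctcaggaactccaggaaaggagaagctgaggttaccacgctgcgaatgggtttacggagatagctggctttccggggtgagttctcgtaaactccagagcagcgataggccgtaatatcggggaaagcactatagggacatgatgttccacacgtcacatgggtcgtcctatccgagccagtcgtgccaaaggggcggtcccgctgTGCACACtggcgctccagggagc
Mt2 chr8:94172368-94172617, plus strand: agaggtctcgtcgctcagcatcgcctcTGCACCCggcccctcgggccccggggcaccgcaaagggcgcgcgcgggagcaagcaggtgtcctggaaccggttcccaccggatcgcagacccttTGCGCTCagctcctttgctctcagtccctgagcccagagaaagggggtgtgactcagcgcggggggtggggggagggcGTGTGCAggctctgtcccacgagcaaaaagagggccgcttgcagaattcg
The Mt1 window held 1 match and the Mt2 window 3, while 21.4% of all windows held at least 1 match and 1.26% at least 3. The shorter core of the palindrome, ACANNNTGT, lies within the full palindrome and was in 5.84% of all windows. Among them were that of Mt1, the Sgk1 window shown and another Sgk1 window without the full palindrome. A match describes letters in the window and not a bound site.

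The members spanned a wide range of levels. Mt2 was the highest per length, with a median of 2657 over the 14 libraries, and was above Mt1 (median 1065) in all 14. The exon length of Mt1 was its whole span of 1246 bases, against 588 bases of exon for Mt2. The per-length level of Mt1, and its order against other members, thus rests partly on this length. In normalized counts the ratio of Mt1 to Mt2 was between 0.722 and 1.11. Mt1 and Errfi1 (median 1025) were not ordered beyond their spread, since Mt1 was higher in 8 of 14 libraries. Sgk1 followed at 585, and its lowest library was above the highest of Klf9, whose median was 107. Cdkn1b (41.1) and Nr3c1 (40.5) stood close together, Cdkn1b being higher in 9 of 14 libraries. Zbtb16 (19.2), Tsc22d3 (16.9) and Fkbp5 (8.0) were the lowest, against a median of 12.02 over all genes. Zbtb16 was above Tsc22d3 in 10 of 14 libraries and Tsc22d3 above Fkbp5 in 12 of 14, so that the receptor itself lay between its most and least abundant targets.

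Nr3c1, which encodes the receptor (chromosome 18, 39410545 to 39519421, minus strand, GRCm38), had normalized counts of 2159 in the lowest, 3068 in the median and 3425 in the highest WT library. In OE/OE the lowest, median and highest libraries were at 1965, 3410 and 3960. The groups overlapped, with 3 OE/OE mice above the WT range, 1 below it and 3 within it. Within pairs, Nr3c1 was higher in OE/OE in 5 of 7, and the log2 fold change was 0.10 ± 0.07 (SE, limma adjusted p = 1.00). The 95% interval of the mean pair difference ran from -0.06 to 0.25 on the log2 scale, so receptor mRNA did not differ detectably between genotypes, and with 1 pair left out the log2 fold change was 0.063 to 0.14.

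Whether Usp22 overexpression changed the receptor or its targets was tested within litters with limma on log2(normalized count + 1), and a gene was called where its unadjusted p did not exceed 0.05, the threshold of the study. None of the 10 members was called, while 3.81% of all genes were (0.0124% after adjustment). edgeR and DESeq2 on the fragments also called 0 of 10 at the same unadjusted threshold, and after Benjamini-Hochberg adjustment over all genes each member had a limma adjusted p of 1.00. The median log2 fold change of the members was 0.06, with 7 above and 3 below 0, and no member moved the same way in 6 or more of its 7 pairs, as 14.1% of all genes did (1.51% in all 7). Each member had overlapping WT and OE/OE values. With a score of adipocyte markers added to the fit, Tsc22d3 (0.45), Sgk1 (0.37) and Klf9 (0.61) passed the unadjusted threshold as higher in OE/OE, as 2618 of the 16124 genes then did in either direction.

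**Figure D1:**
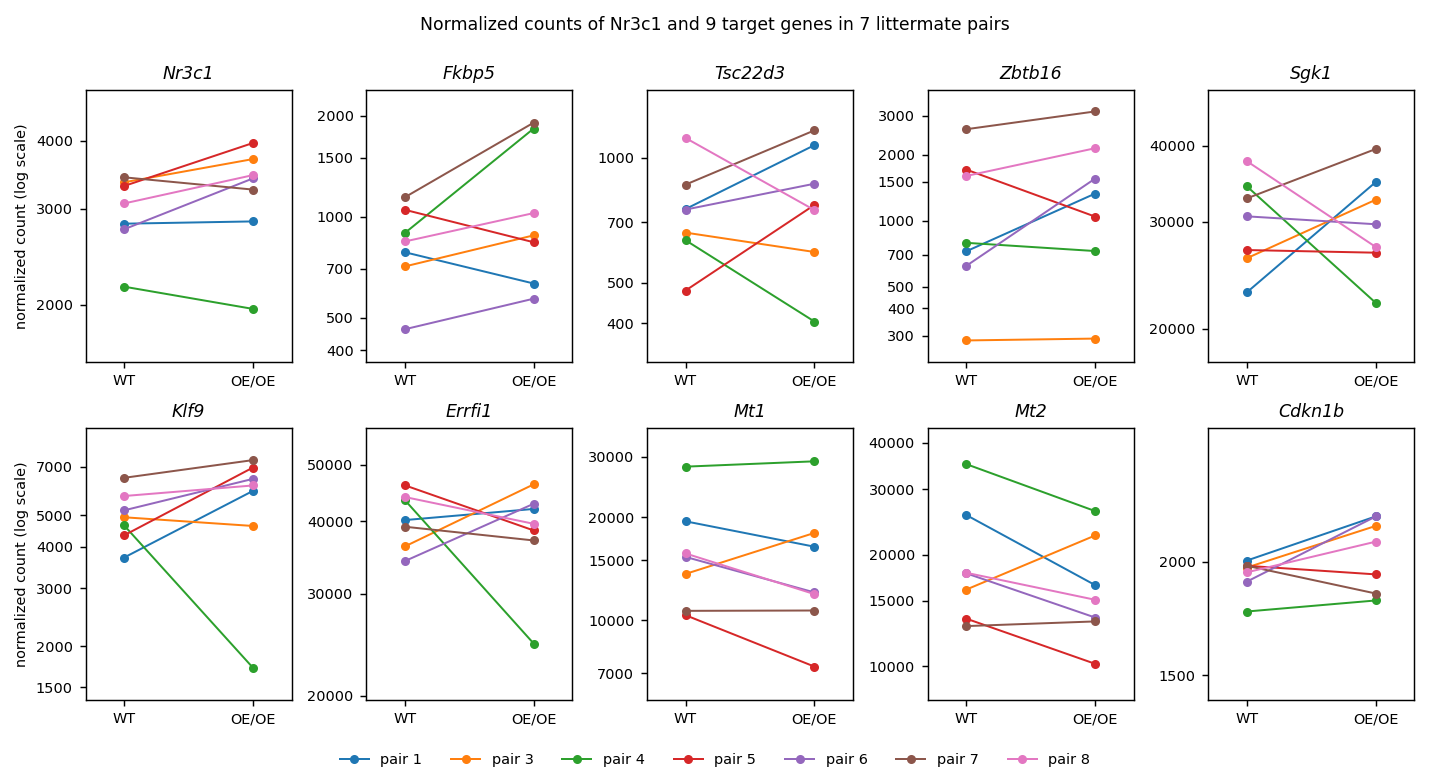
Normalized counts (log axis) of the 10 members in the 14 libraries, 1 panel per gene, with WT and OE/OE littermates joined by a line. Lines run in both directions for every gene, and the OE/OE library of pair 4 is the lowest of 14 for Nr3c1, Tsc22d3, Sgk1, Klf9 and Errfi1.

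Fkbp5 and Tsc22d3 encode feedback and effector proteins of the receptor. Fkbp5 (chromosome 17, 28399094 to 28517527, minus strand), a co-chaperone that lowers the hormone affinity of the receptor, was at 462, 844 and 1143 normalized counts in the lowest, median and highest WT library and at 570, 880 and 1907 in OE/OE. It was higher in OE/OE in 5 of 7 pairs, with a log2 fold change of 0.29 ± 0.16 (SE) and an exact sign-flip p of 0.250 over the 7 pairs (two-sided, smallest possible 0.0156). Its pair differences ran from -0.32 in pair 5 to 1.03 in pair 4, and the 95% interval of their mean ran from -0.17 to 0.75. Fkbp5 passed the unadjusted threshold when pair 1 or pair 5 was left out, with a log2 fold change of 0.39 each time, and its log2 fold change was 0.17 without pair 4. Tsc22d3 (chromosome X, 140539528 to 140600659, minus strand) encodes GILZ, the glucocorticoid-induced leucine zipper that mediates anti-inflammatory effects. Its lowest, median and highest values were 479, 751 and 1117 in WT and 404, 770 and 1165 in OE/OE. These ranges nearly coincided, and the log2 fold change was 0.06 ± 0.17 (SE, exact sign-flip p = 0.781), higher in 4 of 7 pairs. The pairs themselves were far apart, from -0.65 in pair 4 to 0.68 in pair 5.

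Zbtb16 and Klf9 encode transcription factors that are used as readouts of glucocorticoid exposure. Zbtb16 (chromosome 9, 48654297 to 48836222, minus strand), which encodes PLZF, was at 286, 793 and 2606 normalized counts in the lowest, median and highest WT library and at 291, 1328 and 3139 in OE/OE. It had the widest range of the members, about 11-fold over the 14 libraries. OE/OE was higher in 5 of 7 pairs, the log2 fold change was 0.30 ± 0.21 (SE), and the exact sign-flip p was 0.281. Its extreme pairs were pair 5, lower by 0.71, and pair 6, higher by 1.32, and without pair 5 it passed the unadjusted threshold with a log2 fold change of 0.46, while without pair 6 it was at 0.13. Klf9 (chromosome 19, 23141226 to 23168134, plus strand) was at 3716, 4922 and 6483 in WT and at 1721, 6146 and 7337 in OE/OE. The OE/OE library of pair 4, at 1721, lay far below the next lowest OE/OE library, at 4632. With it the log2 fold change was 0.06 ± 0.22 (SE) with OE/OE higher in 5 of 7 pairs (exact sign-flip p = 0.828). Without pair 4 it was 0.31 (limma unadjusted p = 0.0184), so this 1 pair decided whether Klf9 was called.

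Sgk1 and Errfi1 encode regulators of kinase signaling. Sgk1 (chromosome 10, 21882184 to 21999903, plus strand), the serum- and glucocorticoid-regulated kinase that keeps sodium channels at the membrane and whose promoter letters are given above, was at 22961, 30620 and 37736 normalized counts in the lowest, median and highest WT library. In OE/OE it was at 22058, 29716 and 39524. Its groups lay on each other, with a log2 fold change of 0.00, a 95% interval from -0.40 to 0.41 and OE/OE higher in 3 of 7 pairs (exact sign-flip p = 1.00). Single pairs still differed, from -0.64 in pair 4 to 0.60 in pair 1. Errfi1 (chromosome 4, 150853919 to 150868892, plus strand), which encodes the EGF receptor inhibitor MIG6, was at 34134, 40169 and 46114 in WT and at 24607, 39579 and 46290 in OE/OE. Its log2 fold change was -0.08 ± 0.15 (SE, exact sign-flip p = 0.656), higher in 3 of 7 pairs, and without pair 4, where OE/OE was lower by 0.82 on the log2 scale, it was 0.04.

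Mt1 and Mt2 encode small cysteine-rich proteins that bind zinc, copper and cadmium. Mt1 (chromosome 8, 94179082 to 94180327, plus strand) was at 10354, 15320 and 28107 normalized counts in the lowest, median and highest WT library and at 7330, 12067 and 29132 in OE/OE. It was lower in OE/OE in 4 of 7 pairs, with a log2 fold change of -0.15 ± 0.11 (SE, exact sign-flip p = 0.312). Mt2, 5513 bases away (chromosome 8, 94172664 to 94173568, plus strand), was at 12834, 17806 and 35049 in WT and at 10158, 15109 and 26194 in OE/OE. It was lower in 5 of 7 pairs, with a log2 fold change of -0.22 ± 0.13 (SE) and an exact sign-flip p of 0.188. Neither gene passed the threshold, and both passed it without pair 3, at -0.24 for Mt1 and -0.34 for Mt2, as did Mt2 after quantile normalization (-0.30). Other left-out pairs brought Mt1 to as little as -0.089 (without pair 5) and Mt2 to -0.16 (without pair 1). Both genes moved together: the ratio of Mt1 to Mt2 stayed between 0.722 and 1.11 in the 14 libraries with a median of 0.820, and their log2 values had a correlation of 0.96 over the 14 libraries once genotype means were removed, which describes libraries that share litters. Of the exon bases of Mt2, 73.5% lie under the antisense gene Gm45774, which had 139 (WT) and 173 (OE/OE) normalized counts in pair 4 against 19.1 to 66.0 elsewhere (12 libraries). The strand setting of the counting is not given in the sources used here, so fragments of the overlapping genes may not have been separated. Levels of Mt2 and its ratio to Mt1 are open to this limit. Gm45774 was far below Mt2 in every library, but its own counts are open to the same limit.

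Cdkn1b (chromosome 6, 134920401 to 134925513, plus strand), which encodes the cell cycle inhibitor p27, was the steadiest member. It was at 1763, 1970 and 2005 normalized counts in the lowest, median and highest WT library and at 1813, 2103 and 2242 in OE/OE. All 14 libraries lay within 1.27-fold. The SD of its pair differences, 0.12 on the log2 scale, was at percentile 3.11 of all genes, whose median was 0.36. OE/OE was higher in 5 of 7 pairs, by a log2 fold change of 0.08 ± 0.06 (SE), and the exact sign-flip p was 0.109.

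**Figure D2:**
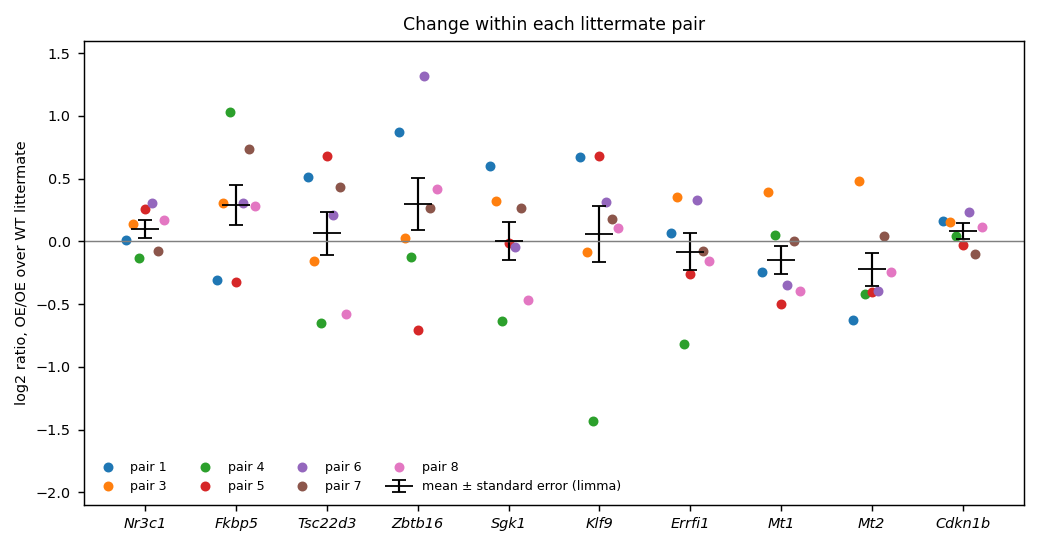
Log2 ratio of OE/OE to WT in each of the 7 littermate pairs (points) with the mean and its standard error (limma) for the 10 members. The 95% intervals of the means are wider and are not drawn. Each of them includes 0, the narrowest being that of Cdkn1b (-0.03 to 0.19) and the widest that of Klf9 (-0.60 to 0.73).

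Litter took a larger share of the variation than genotype in all 10 members, although it has 6 coefficients in the fit and genotype 1. With an F test of the pair coefficients in the same limma fit, 5 of 10 members differed between litters at an adjusted p under 0.05, as did 33.3% of all genes. These were Nr3c1 (adjusted p = 0.0156), Fkbp5 (0.0332), Zbtb16 (0.00491), Mt1 (0.00552) and Mt2 (0.0214). The litter cannot be told apart from the preparation or any other condition that a pair of mice shared. Litter took 90.7% of the sum of squares of log2 values for Mt1, 89.0% for Zbtb16 and 88.6% for Nr3c1, but 30.6% for Sgk1 and 28.1% for Errfi1. The median was 70.3% over the members and 73.9% over all genes, while genotype took a median of 2.65% and 1.43%, so these shares lay close to those of genes at large. Sgk1 (adjusted p = 0.797), Errfi1 (0.846), Cdkn1b (0.541), Klf9 (0.249) and Tsc22d3 (0.158) did not pass the litter test.

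**Figure D3:**
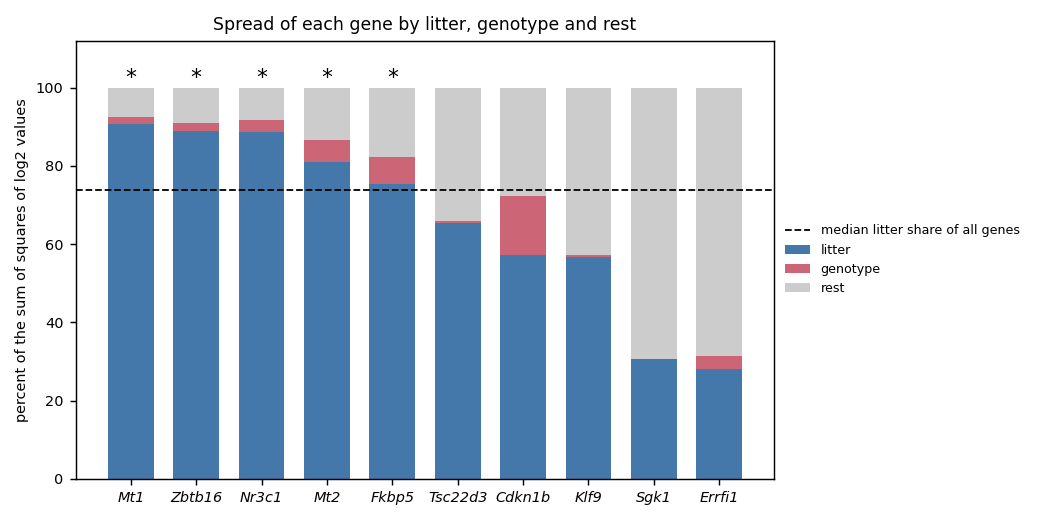
Share of the total sum of squares of log2 normalized counts taken by litter, genotype and the rest, in percent, for each member. The dashed line is the median litter share of all genes. Litter takes from 28.1% (Errfi1) to 90.7% (Mt1), and genotype at most 15.2% (Cdkn1b).

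The litters that were high for one target were not high for all. By the geometric mean of the 2 mice, Zbtb16 ran from 288 normalized counts in pair 3 to 2860 in pair 7, a 9.89-fold range. Fkbp5 ran from 513 in pair 6 to 1476 in pair 7, so pair 7 was the highest litter for both. It was also the highest for Tsc22d3 (1002), Sgk1 (35993) and Klf9 (6897), and its OE/OE library was the highest of 14 for these 5 targets. Mt1 instead was lowest in pair 5 (8712) and highest in pair 4 (28615), a 3.28-fold range, and Mt2 followed it, from 11685 to 30300 in the same litters. Nr3c1 ran the other way, lowest in pair 4 (2060) and highest in pair 5, whose mice were at 3302 (WT) and 3960 (OE/OE).

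Across the 7 litters, the mean log2 level of Nr3c1 was set against that of each of the 9 targets, with exact permutation tests. Mt1 gave Pearson's r = -0.89 (exact permutation p = 0.00833, adjusted over 9 targets 0.0696) and Spearman's rho = -0.75 (exact permutation p = 0.0663, adjusted 0.298). Mt2 gave r = -0.86 (exact permutation p = 0.0155, adjusted 0.0696) and rho = -0.75 (exact permutation p = 0.0663, adjusted 0.298). Both metallothioneins thus tended to be low where Nr3c1 was high, but neither relation passed the adjustment. Errfi1 and Klf9 had r = 0.85 (exact permutation p = 0.0429) and r = 0.84 (exact permutation p = 0.0498), each with an adjusted p of 0.112, and rho = 0.54 (exact permutation p = 0.236) and rho = 0.46 (exact permutation p = 0.302). Without pairs 4 and 1, the litters farthest from the median of Nr3c1, r was -0.42 for Mt1, -0.24 for Mt2, 0.64 for Errfi1 and -0.42 for Klf9. Without pair 4 alone, r was -0.67 for Mt1, -0.59 for Mt2, 0.25 for Errfi1 and 0.21 for Klf9. All 4 relations were thus weaker without pair 4, the litter with the least Nr3c1. Fkbp5 (r = -0.21), Zbtb16 (0.14), Sgk1 (0.31), Tsc22d3 (0.40) and Cdkn1b (0.56) had adjusted p-values from 0.345 to 0.730 in the same exact permutation tests, and no rho had an adjusted p below 0.298.

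**Figure D4:**
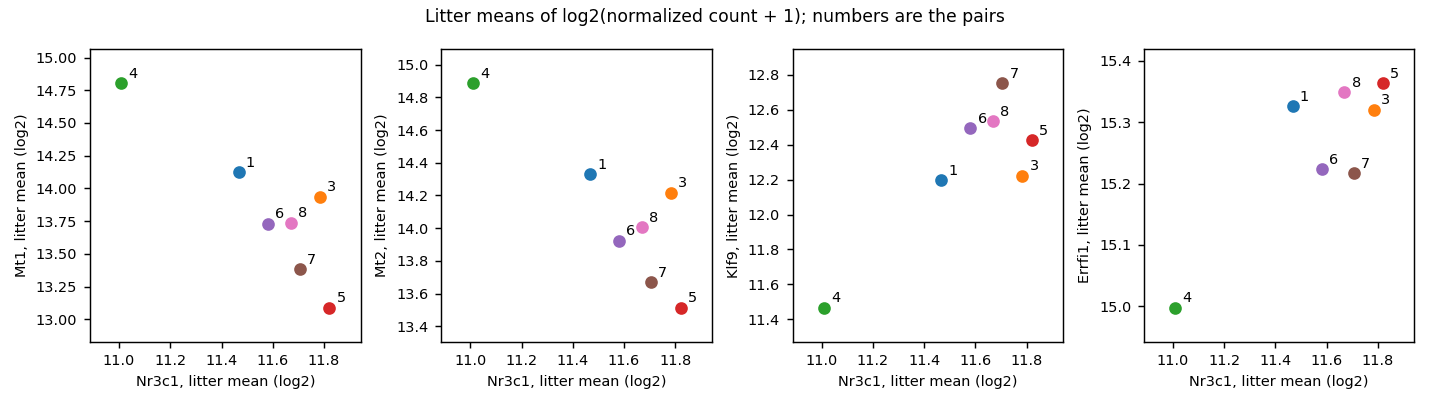
Mean log2 level of Mt1, Mt2, Klf9 and Errfi1 against that of Nr3c1 in the 7 litters, labelled by pair number. These targets had the strongest correlations, and the other targets are not drawn. Pair 4 lies alone at the low end of Nr3c1, with the highest Mt1 and Mt2 and the lowest Klf9 and Errfi1.

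The OE/OE mouse of pair 4 was at an end of the range for 6 of the 10 members. Its library was the lowest of 14 for 5 of the 10 members (Nr3c1, Tsc22d3, Sgk1, Klf9 and Errfi1) and the highest for Mt1, and it was second highest for Fkbp5 and Mt2. Its WT littermate shared the low Nr3c1 (second lowest) and the high metallothioneins (highest for Mt2, second highest for Mt1), but for Sgk1 and Errfi1 it was the fourth highest of the 14. The stromal and proliferation markers that set the OE/OE library apart are given above, and their part in these values was not tested.

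The wider pathway was examined through lists of genes, each read against the share of all genes called, 1.95% higher and 1.85% lower in OE/OE, and against a median log2 fold change of 0.00 over all genes. No listed gene below had a limma adjusted p under 0.05. Of 23 genes of the receptor machinery (chaperones, cofactors and the enzymes that activate or inactivate the hormone), Hsp90aa1, the inducible cytosolic HSP90 that holds the receptor ready for hormone, was called higher and none lower. It went from 31918 ± 5202 to 39618 ± 5420 normalized counts (SD, n = 7), which was 0.32 higher on the log2 scale. The list had a median of 0.06. Hsp90aa1 was no longer called without pair 1, 3, 5, 6 or 7 or with a score of fibroblast markers added to the fit, and 3 genes of the list were called without pair 4. Hsd11b1, the enzyme that regenerates active hormone, was not called, although its log2 fold change was the lowest of the list at -0.77. It was between 242 and 604 in WT and between 81.5 and 497 in OE/OE, with the lowest value in the OE/OE library of pair 4.

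Of 34 other genes known to be induced by glucocorticoids, 3 were called higher and 2 lower, with a list median of 0.02. Foxo3, a transcription factor of the fasting response, rose in all 7 pairs, from 5523 ± 802 to 6973 ± 1549 normalized counts (SD, n = 7), or by 0.32 on the log2 scale. Pdk4, which restrains glucose oxidation, rose by 0.78 in 6 of 7 pairs, and Ddit4, an inhibitor of mTORC1, by 0.23 in 5 of 7. Pck1, an enzyme of gluconeogenesis and of glycerol synthesis in fat cells, fell by 1.34 in 6 of 7 pairs, from 83.3 ± 61.5 to 32.5 ± 37.4 (SD, n = 7). Txnip, an inhibitor of thioredoxin and glucose uptake, fell by 0.32 on the log2 scale in 6 of 7 pairs. Induced genes were thus called in both directions. Of 10 adipocyte markers, 5 were called lower (3 with the fibroblast score), and the median was -0.87, with 7 below 0 and 3 above 0. Those called had log2 fold changes from -1.33 (Cidec) to -1.17 (Retn). The summed levels of the adipocyte markers were 17482 to 39619 in WT and 14695 to 36962 in OE/OE, higher in OE/OE in 3 of 7 pairs. These sums came mostly from Fabp4 (log2 fold change -0.36), Lipe (0.20) and Pnpla2 (0.08), which were not called. The part of adipocyte RNA in the Pck1 values was not tested. The list of induced genes had 7 calls without pair 4 and 2 without the pair as a block. With the fibroblast score it had 0, and the 5 induced genes named above had limma unadjusted p from 0.0692 to 0.398. With the adipocyte score none of these 5 genes was called either (limma unadjusted p from 0.0777 to 0.389), and Pck1 had a log2 fold change of -0.52. Ddit4 was also lost without pair 3, 4 or 6, and without pair 3 Pdk4 had a log2 fold change of 0.49.

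Of 13 genes which glucocorticoids repress, 5 were called lower in OE/OE and none higher. All 13 had log2 fold changes below 0, with a median of -0.49, as did all 12 fibroblast, all 12 endothelial and all 10 macrophage markers. The cytokine Il1b was lower in all 7 pairs. It was at 547, 665 and 3830 normalized counts in the lowest, median and highest WT library and at 230, 510 and 2784 in OE/OE, a log2 fold change of -0.69 ± 0.16 (SE). Its groups overlapped, and both mice of pair 1 were far above the rest. The chemokines Cxcl1 and Ccl2 fell by 0.72 and 0.53 on the log2 scale, Il6 by 0.60, and Ptgs2, which encodes the cyclooxygenase COX-2, by 0.50. All 4 were lowest of the 14 libraries in OE/OE, Cxcl1, Il6 and Ptgs2 in pair 4 and Ccl2 in pair 5. The count of 5 calls fell to 0 without the pair as a block, to 1 with the fibroblast or the adipocyte score, to 2 without pair 3, 6 or 7, and to 3 without pair 4 or 5. It was 2 without trend or with median centring, and 3 with edgeR or a mean of at least 50. Il6 and Ccl2 were called in none of these latter settings, and with the adipocyte score Il6 (0.14) and Ccl2 (0.077) turned to higher in OE/OE. Il6 and Ccl2 were no longer called when any pair other than pair 1 was left out, and without pair 4 the log2 fold changes of Cxcl1 and Ptgs2 were -0.47 and -0.25. Fibroblast markers had 3 of 12 called lower (9 without pair 1, 1 without pair 3 and 0 without pair 5), a median of -0.42 and summed levels of 99705 to 212975 in WT and 64896 to 157987 in OE/OE, and macrophage markers had a median of -0.15 with 0 of 10 called by limma, edgeR or DESeq2 at the unadjusted threshold. The part of these cells in the values of the repressed genes was not tested.

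**Figure D5:**
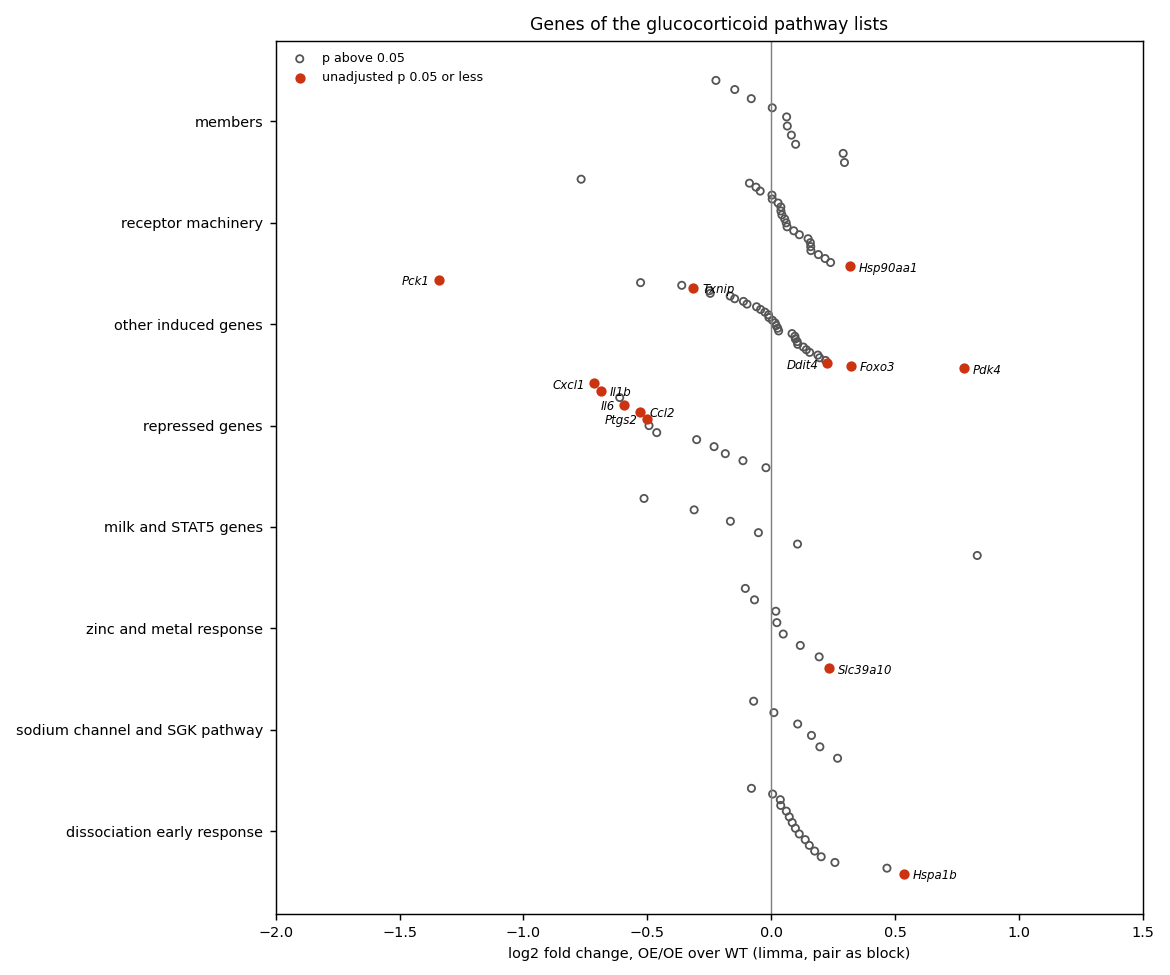
Log2 fold changes of OE/OE over WT (limma, pair as block) for the genes of each glucocorticoid-related list, 1 point per gene, with filled and named points at an unadjusted p of 0.05 or less. The members lie around 0 with none filled, while all 13 repressed genes lie below 0 with 5 filled.

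Lists tied to single members held few calls. For the metallothioneins, 1 of 8 other genes of zinc and metal handling was called, the zinc importer Slc39a10, which rose in all 7 pairs by 0.23 on the log2 scale, from 1668 ± 231 to 1952 ± 191 normalized counts (SD, n = 7). With the adipocyte score Slc39a10 was lost and the list had 4 calls. For Sgk1, 0 of 6 genes of the sodium channel and SGK pathway were called in limma at the unadjusted threshold, and 2 were without pair 1. Of 6 milk protein and STAT5 genes, 0 were called in limma at this threshold, with a median of -0.11, and edgeR and DESeq2 called 0 genes of both lists at it. Early response genes that tissue dissociation raises, several of which glucocorticoids also act on, had 1 call of 16, the heat shock gene Hspa1b, with a log2 fold change of 0.54 (18207 ± 5097 to 26560 ± 7341, SD, n = 7). Without pair 4, whose OE/OE library had the lowest summed level of this list (238236), 5 of the 16 were called. Hspa1b itself was lost without pair 1, 5, 6 or 7 and with the fibroblast score, where the list had 0 calls, while the adipocyte score gave 14. Sgk1, Klf9, Errfi1 and Tsc22d3 were lowest in this same library, and the part of the dissociation response in their levels was not tested. Of the epithelial lists, 2 of 12 pan-epithelial markers were called higher and 1 of 12 luminal markers lower. None of 10 basal, 12 endothelial and 10 lymphocyte markers was called by limma, edgeR or DESeq2 at the unadjusted threshold, whereas with the adipocyte score 3, 11 and 3 of them were. For proliferation markers, 1 of 10 was called lower by limma, 5 were called without pair 4, 3 with the adipocyte score and 0 with the fibroblast score or without the block.

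The genes most alike to the receptor and to Fkbp5 were sought among 13230 genes with a mean of at least 50 normalized counts, by Pearson's r of log2 values over the 14 libraries with genotype means removed. Nr3c1 was closest to Smarca2 (0.95), a subunit of the SWI/SNF chromatin remodeling complex, then to Tgfbr3 (0.95), Pcdhgc3 (0.95), Atp10d (0.94) and Slc5a3 (0.94). Fkbp5 was closest to Nkain1 (0.92), Derl2 (0.92), Sec61a1 (0.90), Gpat4 (0.90) and Smap1 (0.89), among which Sec61a1 and Derl2 encode proteins of the translocation and degradation machinery of the endoplasmic reticulum. No member was on either list. The libraries share litters, so these values describe likeness only.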

How the data were processed

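RNA of MECs from 14 mice was sequenced after polyA selection (TruSeq mRNA kit). Per the labels and the methods of the study, the authors mapped read pairs to mm10 with TopHat2 2.0.10, counted fragments per GENCODE gene with HTSeq 0.6.0, dropped genes below 10 fragments in more than 7 of the 14 libraries and scaled each library by its DESeq 1.18.0 size factor. What the authors deposited is thus a linear signal (normalized counts, none negative) with 1 column per mouse. Fragments were recovered as whole multiples of the smallest step in each library, with 100% of values whole within 0.001. Depth was lowest in the WT libraries of pairs 1 and 8. All 16124 identifiers matched the GRCm38 annotation, which gave positions and exon lengths, and promoter sequences came from RefSeq (GRCm38.p6).

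Expression was modelled in R 4.3.3 with limma 3.58.1 (trend) on log2(normalized count + 1), with terms for pair and genotype. The pseudocount of 1 understates changes of genes with few counts. Numbers in the sample titles and the littermate design give the pairing, and same-numbered libraries deviated together from their genotype means (correlation across genes 0.171 to 0.748). Genes were called where the unadjusted p did not exceed 0.05, as in the study, with Benjamini-Hochberg adjustment over all genes beside it. For single genes the signs of the 7 pair differences were flipped exactly (128 patterns, two-sided). The 95% intervals came from the plain SD of the 7 pair differences and the t distribution, not from the limma SE. Differences between litters were tested by limma's F test at an adjusted p under 0.05, and Nr3c1 was set against its targets by exact permutation of the litters (5040 orders). As alternatives, the recovered fragments were tested with the quasi-likelihood test of edgeR 4.0.16 and with DESeq2 1.42.0. Others were pseudocounts of 0.1 and 10, a mean of at least 50, limma without trend, no block, median centring, quantile normalization, a covariate for fibroblast or adipocyte markers, and leaving out each pair. The limma, edgeR and DESeq2 fits with the pair as a block were first tried on simulated counts. The exact tests were tried on short number series with known answers, and the other alternatives were not tried this way.

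The members and the gene lists were chosen with earlier results of these data known. The text names all 10 members, the pathway genes of the lists that were called, and the 5 genes most alike to Nr3c1 and to Fkbp5. Hsd11b1 and the single adipocyte markers were named after their values were seen. The pathway lists held Trim63, Tat, Pomc, Crh, Csn2, Wap, Slc30a10, Mt4 and Sgk2 as well, for which no row was used here.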

Additional observations from a re-analysis of the deposited data

Results flagged for a closer look

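Each member was examined in WT and in OE/OE for a library whose gap to its nearest neighbour was a large share of the group's range (Dixon's 95% criterion, 0.568 for 7 libraries). Of 20 groups examined, 3 had such a library, all of them in pair 4, where 1 would be marked by chance, about 1 in 20. Klf9 in OE/OE was at 1721 normalized counts in pair 4 against 4632 in the nearest library, a gap of 0.683 of the range. Errfi1 in OE/OE was at 24607 in pair 4 against 37049, a gap of 0.648. Cdkn1b in WT was at 1763 in pair 4 against 1901, a gap of 0.587, although the whole WT range of Cdkn1b was narrow.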

How the results depend on the processing

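The 614 genes called over the whole table became 182 without the replicate block, 403 with a score of fibroblast markers and 2618 with one of adipocyte markers added to the fit, and 381 to 1366 with 1 pair left out. The count of members called moved from 0 to 1 with quantile normalization (Mt2, log2 fold change -0.30) and to 3 with the adipocyte score (Tsc22d3 0.45, Sgk1 0.37 and Klf9 0.61), and was 0 to 2 with 1 pair left out. Without the block 0 members were called, and edgeR and DESeq2 also called 0 at the unadjusted threshold. Genes differing between litters were 5370, became 8116 with the adipocyte score and were 3229 to 6390 with 1 pair left out. Members differing between litters were 3 to 5 with 1 pair left out, and 3 without pair 4, where Nr3c1 (limma adjusted p = 0.187) and Mt2 (0.0916) were lost. Fkbp5 was also lost without pair 6 (0.141), without pair 7 (0.0938) and without trend (0.0585), and Mt2 without pair 5 (0.0631) and with the fibroblast score (0.0713). Klf9 was gained with the adipocyte score (0.0248).

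With the adipocyte score the direction turned for Fkbp5 (-0.041), Errfi1 (0.12), Il6 (0.14) and Ccl2 (0.077), and with quantile normalization for Sgk1 (-0.045) and for the correlation of Nr3c1 with Zbtb16 (-0.044). With 1 pair left out, log2 fold changes were -0.038 to 0.18 for Tsc22d3, -0.096 to 0.11 for Sgk1, -0.041 to 0.31 for Klf9 and -0.15 to 0.043 for Errfi1. The correlation with Nr3c1 was -0.44 to 0.47 for Fkbp5, -0.63 to 0.62 for Tsc22d3, -0.11 to 0.68 for Zbtb16, -0.034 to 0.60 for Sgk1 and -0.60 to 0.75 for Cdkn1b, each lowest or highest without pair 4. With median centring Nr3c1 passed the adjustment over 9 targets against Mt1 (r = -0.95), Mt2 (-0.92), Errfi1 (0.92) and Klf9 (0.88), and without pair 3 against Mt1 and Mt2 (-0.97 each). The causes were not tested. No scaling moved the median of all genes by more than 0.02. With 7 pairs the 95% intervals ran from -0.03 to 0.19 for Cdkn1b and from -0.60 to 0.73 for Klf9, and changes within them could not be resolved.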
